A study of Arabidopsis thaliana with 33 samples.

Results

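The TEMPRANILLO genes and their AP2-like counterparts are transcription factors that delay flowering in *Arabidopsis thaliana*. The 8 genes described here are TEM1 (AT1G25560), TEM2 (AT1G68840, RAV2 in the tables), RAV1 (AT1G13260), SMZ (AT3G54990), SNZ (AT2G39250), TOE1 (AT2G28550, RAP2.7 in the tables), TOE2 (AT5G60120) and TOE3 (AT5G67180). They were listed by gene identifier, with earlier results of these data known, and are 8 of the 32823 genes in each RNA table. All 8 were found and tested in every RNA table, had a value in every histone acetylation table, and carried at least 1 peak of histone H3 acetylation.

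RNA was measured in 12-day-old whole seedlings of 5 genotypes with 3 libraries each, and H3 acetylation (H3ac) by ChIP-seq in 3 of them with 3 ChIP and 3 input libraries each. The genotypes were wild-type Col-0 (WT), hhp1 (a T-DNA insertion line), mbd124 (a triple mutant of MBD1, MBD2 and MBD4, which encode methyl-CpG-binding-domain proteins), sant1234-null (a quadruple mutant) and hda6 (a T-DNA insertion line of the histone deacetylase gene HDA6). The series title speaks of a complex that joins HDA6 to a protein derived from a Harbinger transposase. H3ac was measured in WT, sant1234-null and hda6. Seedlings were untreated and grew on MS plates in long days, 16 h light (24 °C) alternating with 8 h dark (22 °C). No allele is named in the labels, each mutant is represented by 1 line, and the labels do not say whether replicates were separate growths of plants.

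RAV-type proteins (TEM1, TEM2 and RAV1) carry an AP2 and a B3 DNA-binding domain, and TEM1 and TEM2 repress the florigen gene FT and the gibberellin synthesis genes GA3OX1 and GA3OX2. The AP2-type proteins SMZ, SNZ, TOE1, TOE2 and TOE3 also delay flowering, act with the corepressor TOPLESS, and are held down as plants age by the microRNA miR172, which pairs with their coding sequence. H3ac marks the start of active genes, and histone deacetylases such as HDA6 remove it.

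The miR172 pairing site is a difference in sequence between the AP2-type and the RAV-type genes, though not the only one, so the microRNAs and their sites are shown. The miR172 forms that pair with these sites, 1 from each of the 5 miR172 genes, have 3 different sequences and 1 shared seed (bases 2 to 8, in capitals), taken from RefSeq on TAIR10.1 and written 5′ to 3′ in DNA letters.
miR172a and miR172b-3p: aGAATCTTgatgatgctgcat
miR172c and miR172d-3p: aGAATCTTgatgatgctgcag
miR172e-3p: gGAATCTTgatgatgctgcat
The site of each AP2-type gene follows, on the strand of the gene, with capitals for bases that pair with miR172a by Watson-Crick rules.
TOE2, chr5:24210889-24210909 (+): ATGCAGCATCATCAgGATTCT
TOE1, chr2:12226233-12226253 (-): caGCAGCATCATCAgGATTCT
TOE3, chr5:26802175-26802195 (-): tgGCAGCATCATCAgGATTCT
SMZ, chr3:20373774-20373794 (-): tTGCAGCATCATCAgGATTCc
SNZ, chr2:16389066-16389086 (-): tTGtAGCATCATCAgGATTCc
All 5 sites lie in coding sequence, in the last exon except for TOE2, where the site is in exon 9 of 10. They pair at 20 of 21 bases in TOE2, 18 in TOE1, TOE3 and SMZ, and 17 in SNZ. The best match in the RAV-type transcripts paired at 12 bases in RAV1 and 13 in TEM1 and TEM2. Among 31346 genes with 1 transcript each, 0.121% held a site of at least 17 paired bases, a limit set after the SNZ site had been seen.

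In WT seedlings the 3 RAV-type genes were the highest of the 8 in RNA, on the length-corrected FPKM scale. In the hhp1 table TEM2 stood at 173 FPKM (percentile 96.6 of tested genes), RAV1 at 90.2 and TEM1 at 83.6. TOE1 followed at 30.7 FPKM and TOE2 at 14.5. SNZ, TOE3 and SMZ, at 5.96, 5.51 and 4.15 FPKM, lay at percentiles 33.8, 32.0 and 26.2. The tables hold 1 value per genotype and no replicate values, so whether neighbours in this order differ beyond their spread cannot be told.

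**Figure D1:**
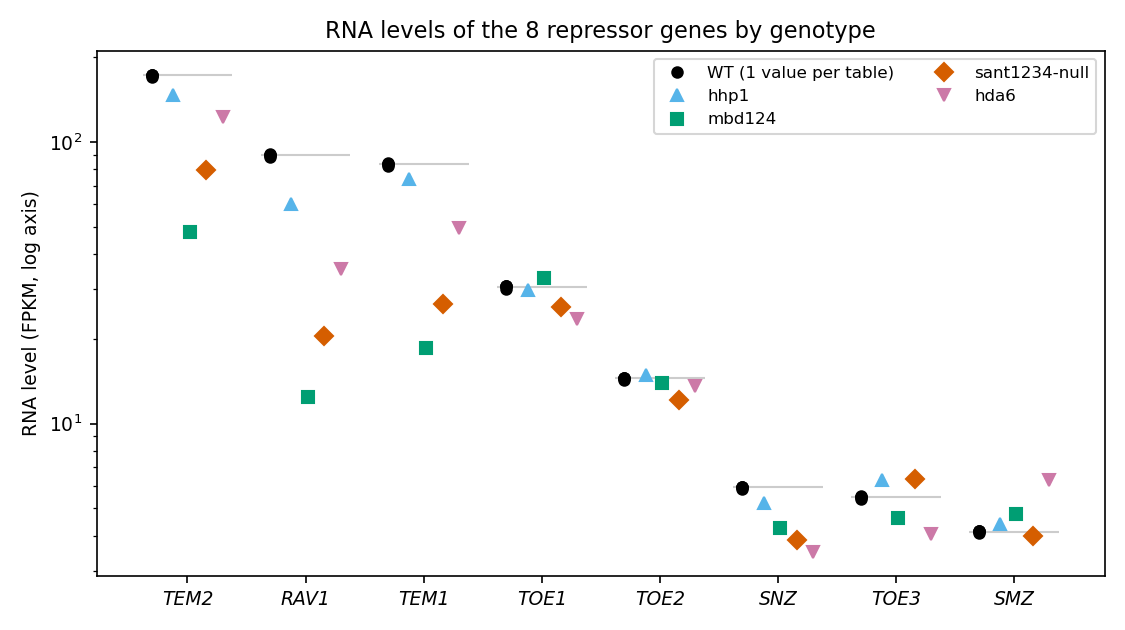
RNA level (FPKM, log axis) of the 8 genes in each genotype, 1 deposited value per genotype and therefore no error bars, with WT taken from the table of each mutant. The RAV-type genes start highest in WT, and RAV1 drops to 12.4 FPKM in mbd124, whereas TOE1 lies between 23.6 and 32.9 FPKM in the mutants.

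The RAV-type genes fell together in mbd124 and sant1234-null, less uniformly in hda6, and RAV1 fell also in hhp1. RAV1, a RAV-type factor that restrains growth and flowering, stood at 60.2 FPKM in hhp1, 12.4 in mbd124, 20.5 in sant1234-null and 35.2 in hda6, against 88.4 to 90.3 in WT across the authors' deposited tables. All 4 mutant values lay below WT. Its log2 changes in the authors' deposited tables were -0.58 ± 0.14 (SE, adjusted p 0.00349) in hhp1, -2.86 ± 0.15 (adjusted p 0.000861) in mbd124, -2.14 ± 0.16 (adjusted p 0.000723) in sant1234-null and -1.33 ± 0.17 (adjusted p 0.000899) in hda6. The authors' unadjusted Cuffdiff p for RAV1 was 5e-05 in mbd124, sant1234-null and hda6, the lowest among the 8 genes. TEM1 shared it in these mutants, and TEM2 in mbd124 and sant1234-null. Adjusted p-values that rest on this shared value do not rank the genes or mutants. Ordered by size, the fall of RAV1 was number 24 of 1347 falls in mbd124 and number 33 of 1264 in sant1234-null, counting genes called lower with a finite change.

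TEM1, a repressor of FT, was listed at 73.8 FPKM in hhp1, 18.6 in mbd124, 26.7 in sant1234-null and 49.5 in hda6, against 82.0 to 83.8 in WT across the authors' deposited tables. It fell in 3 mutants, with log2 changes in the authors' deposited tables of -2.17 ± 0.15 (adjusted p 0.000861) in mbd124, -1.65 ± 0.16 (adjusted p 0.000723) in sant1234-null and -0.73 ± 0.17 (adjusted p 0.000899) in hda6. In hhp1 the authors' deposited table gave -0.18 ± 0.14 (adjusted p 0.652), which did not pass.

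TEM2, which acts with TEM1, was listed at 146 FPKM in hhp1, 48.0 in mbd124, 79.5 in sant1234-null and 122 in hda6, against 170 to 173 in WT across the authors' deposited tables. It fell in mbd124 and sant1234-null, with log2 changes in the authors' deposited tables of -1.85 ± 0.16 (adjusted p 0.000861) and -1.12 ± 0.16 (adjusted p 0.000723). Its changes in hda6 (-0.47 ± 0.17, adjusted p 0.0553) and hhp1 (-0.24 ± 0.15, adjusted p 0.463) in the authors' deposited tables did not pass. With changes centred on the median tested gene, TEM2 passed in hda6 (-0.49, adjusted p 0.0382).

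Within each of the 3 RAV-type genes the size of the change ran in the same order, largest in mbd124, then sant1234-null, hda6 and hhp1. Differences between mutants were not tested, and all 4 mutants were compared with the same WT libraries, so an error in WT would enter all 4 changes. Summed over TEM1, TEM2 and RAV1, FPKM stood at 80.8% of WT in hhp1, 22.8% in mbd124, 36.4% in sant1234-null and 60.9% in hda6. In bulk seedlings, fewer cells of a type and less RNA per cell cannot be told apart.

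**Figure D2:**
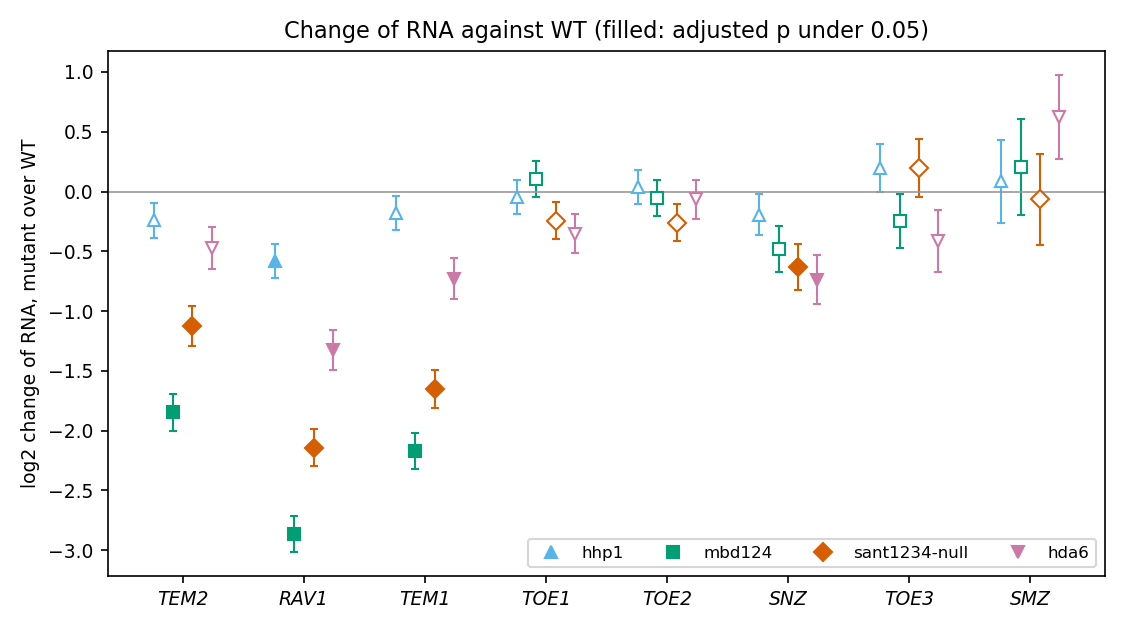
Log2 change in FPKM against WT (bars show the SE derived from the deposited statistic) for the 8 genes in the 4 mutants, with filled points for an adjusted p under 0.05. The RAV-type genes reach -2.86 in mbd124 and -2.14 in sant1234-null, while the AP2-type genes lie between -0.74 and 0.63.

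Of the 5 AP2-type genes, SNZ alone passed the test in any of the 4 tables. SNZ, which with its paralog SMZ represses flowering, was listed at 5.21 FPKM in hhp1, 4.26 in mbd124, 3.85 in sant1234-null and 3.50 in hda6, against 5.84 to 5.97 in WT across the authors' deposited tables. It fell in sant1234-null and hda6, with log2 changes in the authors' deposited tables of -0.63 ± 0.19 (adjusted p 0.0111) and -0.74 ± 0.21 (adjusted p 0.00946). The change in mbd124 (-0.48 ± 0.19, adjusted p 0.0805) in the authors' deposited table did not pass.

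SMZ, TOE1, TOE2 and TOE3 passed in none of the 4 tables. SMZ was listed at 3.98 to 6.29 FPKM in the mutants and 4.07 to 4.16 in WT across the authors' deposited tables, and its largest change was 0.63 ± 0.35 (adjusted p 0.303) in hda6. TOE1, which also binds the photoperiod factor CONSTANS, was listed at 23.6 FPKM in hda6 against 30.1 in WT (-0.35 ± 0.16, unadjusted p 0.0331, adjusted p 0.175) in the authors' deposited table. Its other mutant values were 26.0 to 32.9 FPKM, and they lay on both sides of WT. TOE2 was listed at 12.2 to 14.9 FPKM in the mutants against 14.2 to 14.6 in WT, and TOE3 at 4.04 to 6.33 against 5.40 to 5.52, in the authors' deposited tables. Summed over the 5 AP2-type genes, FPKM stood at 99.5% of WT in hhp1, 99.7% in mbd124, 85.8% in sant1234-null and 85.5% in hda6.

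By count, the authors' deposited tables called 1 of 8 members lower in hhp1, where 6.14% of all tested genes were called, 3.26% lower and 2.88% higher. In mbd124 3 of 8 were lower, against 11.3% of genes called, 6.42% lower and 4.85% higher. In sant1234-null 4 of 8 were lower, against 15.3% called, 5.93% lower and 9.33% higher. In hda6 3 of 8 were lower, against 12% called, 4.79% lower and 7.25% higher. None of the 8 was called higher in any table by the authors' Cuffdiff test. The counts at an unadjusted p under 0.05 were 1, 4, 4 and 5 in the same order, all with lower RNA. The median log2 change of the RAV-type genes was -0.24, -2.17, -1.65 and -0.73, that of the AP2-type genes 0.04, -0.05, -0.24 and -0.35, and that of all tested genes 0.00, 0.01, 0.00 and 0.02.

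SMZ and TOE3 overlap genes on the opposite strand at their 3′ ends, AT3G54980 by 544 bp and AT5G67170 by 119 bp. The sources used here do not say whether reads were counted by strand, which leaves their values uncertain. The RAV-type transcripts share runs of identical bases of at most 32 with each other (TEM1 with TEM2 and with RAV1), and RAV1 shares 35 with EDF3, so reads longer than these runs can tell them apart.

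Seen across all 4 mutants, the genes nearest to TEM1 were not other members. Distance was taken over the 4 log2 changes (Euclidean) among 14691 genes tested in all tables with at least 5 FPKM in WT. SMZ, at 4.07 to 4.16 FPKM in WT, was below this limit and was not ranked. The nearest to TEM1 were GATL9 (0.37), DFL2 (0.42), HAT1 (0.45), ERF107 (0.48) and AT2G23690 (0.49). TEM2 was number 15 in that order (0.67) and RAV1 number 97 (1.11). The nearest to TEM2 were XTH9 (0.075), AT2G23690 (0.19), BEE3 (0.22), ATGPAT3 (0.24) and AT5G23360 (0.26), with TEM1 at number 67. From TEM2, SNZ came at number 798 (1.48), ahead of RAV1 at number 1575 (1.71).

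Nearby relatives showed how far the pattern reached within the family. EDF3, a further RAV-type gene, was listed at 2.57 FPKM in hda6 against 4.58 in WT a log2 change of -0.83 (adjusted p 0.00372) by the authors' deposited table, and it did not pass in the other 3 mutants. The remaining RAV genes, AT1G50680 and AT1G51120, were listed at 0 and not tested. AP2, the floral organ identity gene of the miR172 group, passed in none of the 4, with log2 changes from -0.12 to 0.31 in the authors' deposited tables.

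Upstream of the AP2-type genes, none of the 5 MIR172 precursors could be followed, as all were listed at 0 and not tested. Of the 6 SPL genes, among which SPL9 promotes MIR172 transcription, SPL9 and SPL3 fell in sant1234-null and hda6. SPL9 was listed at 2.27 FPKM in sant1234-null and 2.16 in hda6 against 3.53 and 3.45 in WT in the authors' deposited tables. The authors' deposited table has SPL4 rising in hhp1, from 3.47 to 5.46 FPKM, and 0 of 6 were called in mbd124 by the authors' Cuffdiff test, with 1 at an unadjusted p under 0.05. Of all tested genes 11.3% were called in mbd124, so no call among 6 genes says little.

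Of the targets of these repressors, FT and TSF passed the test in no mutant. FT was listed at 0.717, 1.36, 0.679 and 0.608 FPKM in hhp1, mbd124, sant1234-null and hda6, against 0.978 to 0.999 in WT, with adjusted p of 0.710, 0.640, 0.520 and 0.455 in the authors' deposited tables. TSF, the paralog of FT, was listed at 0.911, 0.181, 0.0642 and 0.419 FPKM against 0.590 to 0.604 and was called in none of the authors' deposited tables. Both florigen genes were therefore low in every genotype, and no change in FT was called in any mutant. The SE of its log2 changes was 0.42 to 0.49, so small changes could have been missed. Among the 5 tested genes of 8 listed, FUL, a floral meristem gene, fell in mbd124 (-1.03), sant1234-null (-1.02) and hda6 (-1.49) in the authors' deposited tables. SOC1, a floral integrator, fell in sant1234-null (28.7 to 19.9 FPKM) and hda6 (28.1 to 14.2 FPKM) in the authors' deposited tables. In hhp1 0 of 5 were called by the authors' Cuffdiff test, with 1 at an unadjusted p under 0.05, where 6.14% of all tested genes were called. GA3OX1 passed in no mutant, with log2 changes of -0.42, -0.09, 0.17 and 0.26 in hhp1, mbd124, sant1234-null and hda6. GA3OX2 was not tested in any mutant.

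Of the genes whose products work with these repressors, TPL, 4 TPL-related genes and HDA19 passed in no table. SVP, a MADS repressor that forms complexes with floral repressors, fell in sant1234-null (-0.44) and hda6 (-0.52) in the authors' deposited tables. FLC, a further MADS repressor of flowering, rose in all 4 (1.10, 1.31, 1.77 and 1.88), again in the authors' deposited tables.

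RAV-type genes are rapidly induced by handling and vary over the day, so a touch and rapid-response list and a clock list are given beside them. Of the rapid-response genes, 8 of 11 tested were called lower in hhp1, 7 of 12 in mbd124, 8 of 12 in sant1234-null and 6 of 11 in hda6, and 1, 3, 4 and 3 were called higher, in the authors' deposited tables. Of all tested genes, 3.26%, 6.42%, 5.93% and 4.79% were called lower and 2.88%, 4.85%, 9.33% and 7.25% higher, in the same order. TCH4, a touch-induced cell wall enzyme, fell from 767 to 24.6 FPKM in mbd124 and from 770 to 86.3 in sant1234-null, while WRKY40, a defence regulator, rose in all 4 mutants, in the authors' deposited tables. TCH3 rose in sant1234-null (0.64) and hda6 (0.70), and CBF3 in mbd124 (3.77) and sant1234-null (2.34). CBF1 fell in hhp1 (-1.08) but rose in mbd124 (1.90), sant1234-null (1.43) and hda6 (0.94). The list's median log2 change was -0.57, -0.80, -0.99 and -0.48. Of 12 clock and photoperiod genes, CCA1 fell in mbd124 (-0.76) and sant1234-null (-0.51), and in hda6 LHY rose (0.63) and PRR5 fell (-0.53), in the authors' deposited tables. In the same order, 0, 1, 1 and 1 of the 12 were called lower and 0, 0, 0 and 1 higher. Unadjusted p was under 0.05 for 3, 6, 3 and 4. Of all tested genes, 6.14%, 11.3%, 15.3% and 12% were called in either direction. Of 8 ethylene-response genes none was called in any table by the authors' Cuffdiff test, with 0, 0, 2 and 2 at an unadjusted p under 0.05. The part of handling or harvest time in the RAV-type falls was not tested.

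The tissue was that of green seedlings. In WT, as the hhp1 comparison lists it, 3 leaf markers stood at 1930 to 6246 FPKM and 3 root markers at 2.39 to 1674, whereas 3 floral markers stayed at or below 0.566 and 2 seed markers at or below 0.409. By the authors' deposited tables, the leaf marker LHCB2.1 fell in mbd124 (-0.77) and sant1234-null (-0.61), and the root marker LRX1 fell in hhp1 (-0.68) and mbd124 (-0.47). IRT1, a root marker, rose in sant1234-null (0.97) and hda6 (0.87), the floral marker PI in hhp1 (1.56) and sant1234-null (2.47), and the seed marker CRA1 in mbd124 (0.409 to 2.15 FPKM) and hda6 (0.402 to 0.988 FPKM), again by the authors' deposited tables. The other floral markers, AP3 and AG, and the other seed marker, OLEO1, were not tested in any mutant. They stayed at or below 0.1925 FPKM in every genotype. The part of tissue makeup in the members' changes was not tested. As a check of labels, MBD2 fell from 17.5 to 6.45 FPKM in mbd124, MBD1 and MBD4 were listed at 0.0476 and 0.208 FPKM without passing the test, and HDA6 was not lower in hda6 (18.8 FPKM, log2 change 0.15 against WT, adjusted p 0.735) in the authors' deposited tables. The RNA tables give no depth, and the ChIP tables counted 69959151, 78316244 and 68093284 reads in genes for WT, sant1234-null and hda6.

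H3ac over the gene bodies was highest at the RAV-type genes in WT. TEM1 had 82.6 RPKM (10180 reads), TEM2 79.4 and RAV1 65.8, at percentiles 98.7, 98.6 and 97.8 of all genes. TOE1 had 34.2 RPKM, SMZ 14.7, TOE2 13.9, TOE3 10.2 and SNZ 8.57. TOE3 and SNZ lay at percentiles 46.7 and 36.2. This order matched that of RNA for the RAV-type genes as a group and for TOE1, but SNZ was lowest in H3ac and not in RNA.

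In RPKM, H3ac was lower at the 3 RAV-type genes and TOE1 in both mutants and higher at SNZ and TOE3. RPKM is scaled by the mapped reads of each genotype, so lower means lower relative to other regions. Whether total H3ac changed was not tested. In sant1234-null TEM1 stood at 57.8 RPKM, TEM2 at 53.5, RAV1 at 53.6 and TOE1 at 24.9. In hda6 the same genes stood at 61.7, 59.5, 54.4 and 27.4. SMZ (12.2 and 12.6) and TOE2 (12.2 and 12.4) were also below WT, by less in RPKM. The 95% counting intervals of these mutant values lay below those of WT, but counting error is only a part of the error and each genotype has 1 value. SNZ stood at 13.4 RPKM in sant1234-null (157% of WT, 2675 reads against 1493) and 10.4 in hda6 (122%). TOE3 was higher by less, at 11.7 RPKM in sant1234-null (115% of WT) and 11.9 in hda6 (117%). The log2 ratio of RPKM + 1 was -0.51 and -0.41 at TEM1, -0.56 and -0.41 at TEM2, -0.29 and -0.27 at RAV1, and 0.59 and 0.26 at SNZ, against a median of 0.08 over all genes in either mutant. By rank among all genes, which in WT was 98.7, 98.6 and 97.8, the RAV-type genes were not lower in hda6, where TEM1 stood at percentile 98.8, TEM2 at 98.7 and RAV1 at 98.3, and in sant1234-null at 98.5, 98.1 and 98.1.

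Peaks of 401 bp were tested by the authors, and how many replicates entered is not recorded in the tables. Each gene had 1 peak near its start, with a centre 175 to 855 bp downstream of the annotated start and lying wholly or mainly in coding exons. The SMZ model begins at its first coding base, so its distance is not on the same footing as those of the other genes. TOE1 had 1 further peak in the sant1234-null table and 2 in the hda6 table. At TEM1 (chr1:8982475-8982875) the peak's log2 concentration went from 10.18 in WT to 9.67 in sant1234-null, a fold of -0.44 ± 0.17 (SE, log2, FDR 0.04) in the authors' deposited table. At TEM2 (chr1:25880361-25880761) it went from 10.03 to 9.31, with a fold of -0.63 ± 0.17 (FDR 0.00212) in the authors' deposited table. At TOE1 (chr2:12227808-12228208) it went from 9.45 to 8.87, with a fold of -0.52 ± 0.17 (FDR 0.0104) in the authors' deposited table. These 3 peaks were called lower, but the TEM1 call ended after centring on the median of all peaks (-0.42, adjusted p 0.0524), and all 3 ended after centring on peaks of like concentration (adjusted p 0.962, 0.597 and 0.876). RAV1, the member with the largest fall in RNA, had a peak fold of -0.28 ± 0.16 (FDR 0.191) that did not pass in the authors' deposited table.

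The SNZ peak (chr2:16390545-16390945) gained H3ac while SNZ RNA fell in the same mutant. Its log2 concentration went from 6.69 to 7.74 in sant1234-null, a fold of 0.84 ± 0.23 (FDR 0.0026) in the authors' deposited table. In hda6 the peak went from 6.60 to 6.88, with a fold of 0.23 ± 0.24 (FDR 0.52) that did not pass in the authors' deposited table. The genotypes' RNA and H3ac came from separate libraries, so the pairing is of genotypes, not of samples. The TOE3 peak, with folds of 0.21 ± 0.20 (FDR 0.478) in sant1234-null and 0.13 ± 0.22 (FDR 0.72) in hda6, did not pass in the authors' deposited tables.

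By count, 3 of 9 peaks at the members were called lower in sant1234-null (28.1% of all peaks were called, 12.9% lower) and 1 of 9 higher (15.2%) in the authors' deposited table. In hda6 0 of 10 were called in either direction by the authors' DiffBind test (27.8% of all peaks were called, 22.5% lower and 5.29% higher), with 4 at an unadjusted p under 0.05. The folds in hda6 were -0.37 at TEM1, -0.42 at TEM2, -0.29 at RAV1 and -0.44 at the first TOE1 peak in the authors' deposited table. The median fold of all peaks was -0.02 in sant1234-null and -0.23 in hda6, and relative to it these 4 peaks were at -0.14, -0.19, -0.06 and -0.21 in hda6.

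Strong peaks as a class had lower folds in both mutants. How the folds were scaled between genotypes is not known from the sources used here, so an absolute loss of H3ac cannot be told from them. In the tenth of peaks with the highest concentration, which holds the peaks of TEM1, TEM2, RAV1 and the first of TOE1, the median fold was -0.46 in sant1234-null and -0.55 in hda6. The called folds at TEM1, TEM2 and TOE1 (-0.44, -0.63 and -0.52) thus lay near the median of equally strong peaks, and after centring on it they were 0.02, -0.17 and -0.06 and did not pass. The SNZ fold, against a median of -0.15 for peaks of its strength, passed after the same centring (adjusted p 0.000283).

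**Figure D3:**
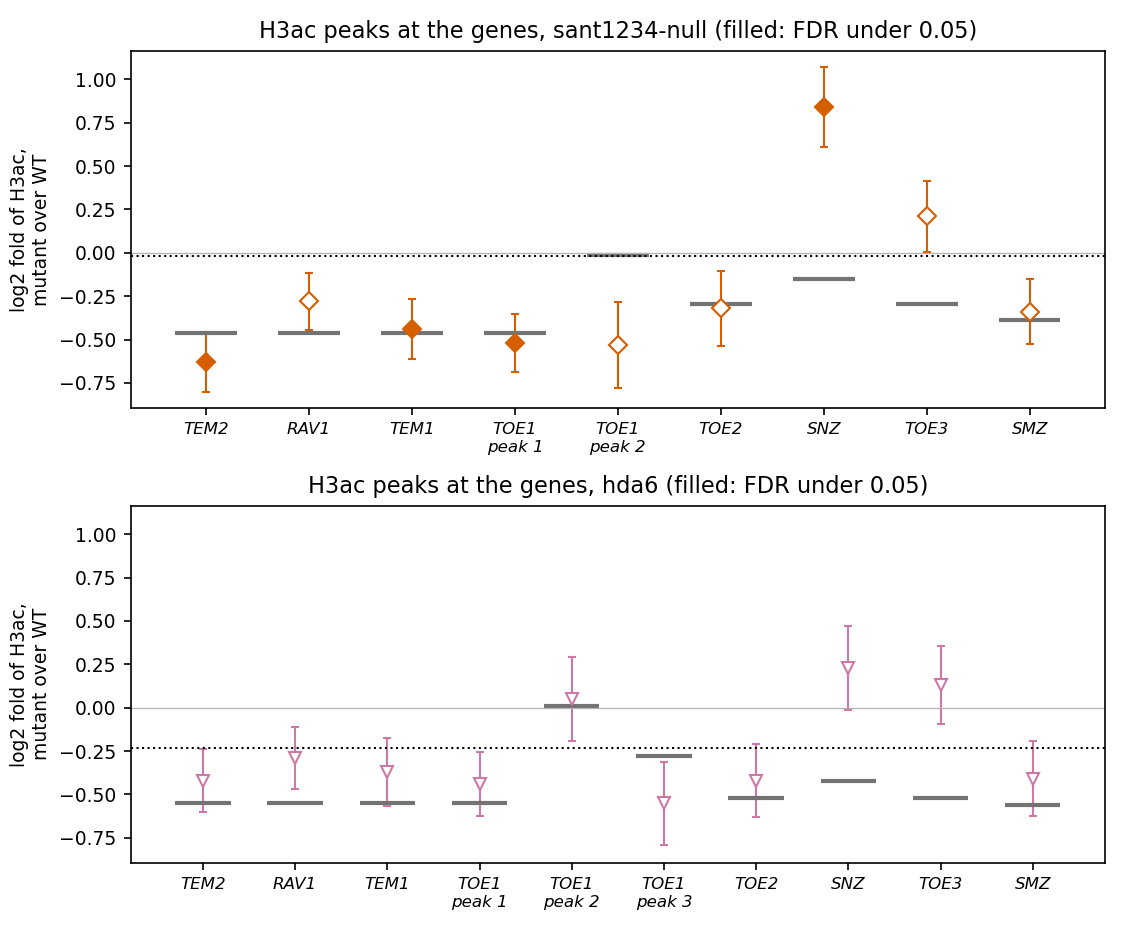
Deposited log2 fold of H3ac (bars show the SE) for each peak at the 8 genes in sant1234-null and hda6, with a dotted line for the median of all peaks and grey bars for the median of peaks of like concentration. The TEM1, TEM2 and TOE1 folds in sant1234-null sit near the grey bars at -0.46, and the SNZ fold of 0.84 lies above its bar at -0.15.

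**Figure D4:**
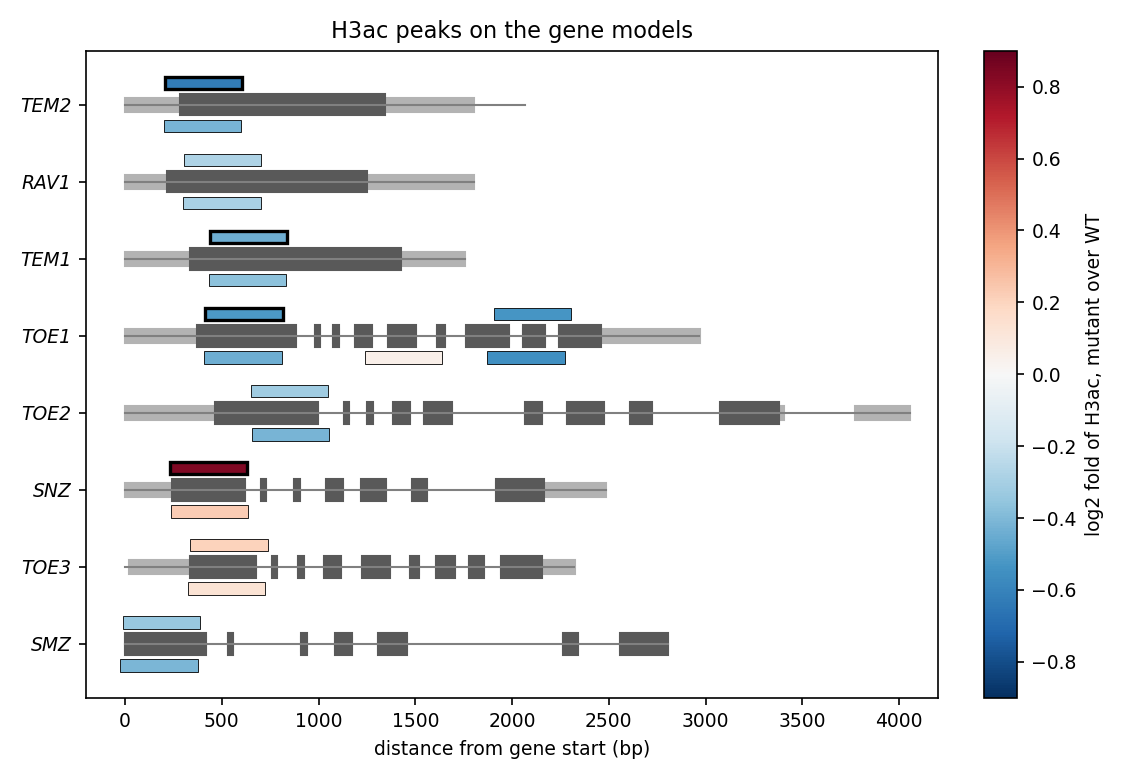
Map of the 8 genes by distance from the annotated gene start in bp, with coding exons dark, other exons light, and H3ac peaks as boxes above (sant1234-null) and below (hda6), outlined thickly where FDR is under 0.05. The peak of each gene lies near the start, at 175 to 855 bp, and TOE1 carries further peaks at 1440 to 2105 bp.

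The sequences in front of the genes whose RNA fell together, and of SNZ, are given from RefSeq TAIR10.1 on the gene's strand, 250 bases up to the base before the annotated start, with motif matches in capitals on either strand. The motifs were chosen after values had been seen. CAACA is the element that the AP2 domain of RAV1 binds. CACCTG is bound by its B3 domain. Besides these, the calmodulin-binding factor element CGCGTT, the G-box with the letters CACGTG, and the evening element of the clock, AAAATATCT, were searched.
TEM1, chr1:8983315-8983564 (-): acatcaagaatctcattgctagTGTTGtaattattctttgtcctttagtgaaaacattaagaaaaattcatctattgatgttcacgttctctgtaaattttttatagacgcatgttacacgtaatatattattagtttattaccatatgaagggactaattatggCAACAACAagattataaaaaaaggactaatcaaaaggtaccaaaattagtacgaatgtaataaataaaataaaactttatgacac
TEM2, chr1:25879905-25880154 (+): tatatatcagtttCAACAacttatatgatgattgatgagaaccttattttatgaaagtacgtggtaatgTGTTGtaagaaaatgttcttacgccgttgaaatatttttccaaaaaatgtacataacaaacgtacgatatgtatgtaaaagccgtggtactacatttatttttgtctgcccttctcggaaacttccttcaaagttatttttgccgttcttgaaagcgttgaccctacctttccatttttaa
RAV1, chr1:4541918-4542167 (+): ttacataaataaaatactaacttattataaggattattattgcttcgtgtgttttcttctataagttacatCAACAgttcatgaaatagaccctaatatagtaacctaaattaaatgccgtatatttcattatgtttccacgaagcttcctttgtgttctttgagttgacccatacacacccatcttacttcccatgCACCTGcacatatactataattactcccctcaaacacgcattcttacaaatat
SNZ, chr2:16391177-16391426 (-): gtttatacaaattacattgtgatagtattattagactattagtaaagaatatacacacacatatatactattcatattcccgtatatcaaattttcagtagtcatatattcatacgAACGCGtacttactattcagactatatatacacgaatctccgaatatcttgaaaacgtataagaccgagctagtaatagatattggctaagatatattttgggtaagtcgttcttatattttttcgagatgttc
CAACA was found in 5 of the 8 windows (TEM1, TEM2, RAV1, TOE1 and TOE3) and in 47.4% of 27444 genes. CACCTG, in 2.57% of genes, was found for RAV1 with its first base at -53, and CGCGTT, in 2.59% of genes, for SNZ at -134. CACGTG (6.49% of genes) and AAAATATCT (2.36%) were in none of the 8 windows. The AP2-type genes TOE2 and SMZ held none of the 5 motifs. The SMZ window ends at the first coding base, where its model begins, and is not directly comparable with the others.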

How the data were processed

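RNA-seq was analysed from tables with 1 value per genotype and H3ac ChIP-seq from gene and peak tables, with samples grouped on the labels' genotype and assay. The RNA tables hold the authors' FPKM, scaled by them between the genotypes of a table, and their columns are those of Cuffdiff, per the file headers. A deposited p-value and q-value (adjusted p) stand beside each gene, and the q-value was found to be the Benjamini-Hochberg adjustment over tested genes. Standard errors came from the change and the authors' deposited test statistic (a score), after scaling the latter by 1.74, the normal quantile of p divided by it. The ChIP gene tables hold a deposited read count and RPKM. The peak tables hold log2 concentrations, log2 folds, p-values and FDRs as the authors deposited them, with DiffBind's column names per the file headers. Standard errors of folds came from fold and p.

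Tools named by the submitters' processing notes, without roles, are CASAVA, bedtools, Bowtie2 2.4.1, TopHat2 2.0.12, MACS2 2.1.1.20160309, Cuffdiff, Cufflinks 2.2.1 and DiffBind, with the build TAIR10. Their settings are not known from the sources used here. Python 3.11.15 with numpy 2.4.6, pandas 2.3.3 and scipy 1.17.1 was used here, and the scripts were tested on simulated data.

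Log2 changes were taken from FPKM with no pseudocount, genes were called at an adjusted p under 0.05 and peaks at an FDR under 0.05. A peak was assigned to a gene on an overlap of 1 bp. Centred values were called again from a normal approximation of each value over its standard error, adjusted by Benjamini-Hochberg. Counting intervals cover counting error only, at 95%. All 8 genes are named, with list genes past the threshold, the relatives, FT, TSF, AP2, SVP and FLC, and the 5 genes nearest to TEM1 and to TEM2. List genes cited without passing the threshold as label or tissue checks (MBD1, MBD4, HDA6, AP3, AG, OLEO1 and marker ranges) were added, as were GA3OX1 and GA3OX2. The genes and lists were chosen with earlier results of these data known. Where replicates are not separate growths, p-values measure only the spread between libraries. RNA depth is unknown. Of 32548 genes, 32532 had the same start and end in the tables (TAIR10) and in RefSeq TAIR10.1, the 8 members among them, and sequences were read by coordinates on that basis. Columns of per-sample values left unused numbered 0. Transposable element tables and input libraries were not used here.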

Additional observations from a re-analysis of the deposited data

How the results depend on the processing

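No paired analysis was possible because the tables hold 1 value per genotype, and for the same reason leaving out replicates was not run. The 4 counts of members called in RNA stayed within 1.5 times under the 5 other settings tried: a pseudocount of 0.1 or 1, adjustment over genes with an FPKM of at least 1, an adjusted p under 0.01, and centring on the median tested gene. The H3ac count in sant1234-null fell from 4 peaks to 2 at an FDR under 0.01 and to 1 (SNZ) after centring on peaks of like concentration, an alternative chosen after seeing the data. That centring turned the sign of 9 folds: in sant1234-null RAV1 to 0.18, SMZ to 0.05 and TEM1 to 0.02, and in hda6 RAV1 to 0.26, SMZ to 0.15, TEM1 to 0.18, TEM2 to 0.13, TOE1 to 0.11 and TOE2 to 0.10. Centring on all peaks left TEM1 in sant1234-null at -0.42 (adjusted p 0.0524), no longer past the threshold. The hda6 count of called peaks was 0 under each setting run. Of 16 log2 ratios of H3ac RPKM, 11 moved beyond the counting interval when centred on all genes, with no change of sign. The cause of these shifts was not tested. RNA depth is unknown, so what it limits cannot be told; the SE of the log2 change was widest for SMZ among the 8 genes, at 0.35 to 0.40.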
